A study of Mus musculus with 25 samples.

Results

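The genes described here are 10 markers of adipose progenitors, the stromal cells of fat from which new adipocytes arise: Pdgfra, Pdgfrb, Dpp4, Pi16, Cd34, F3, Dlk1, Zfp423, Ly6a and Cd55. They were picked by symbol, after the gene identifiers of the count tables had been joined to an annotation, and are 10 of the 54752 genes counted. RNA had been sequenced from whole epididymal (eWAT) and inguinal (iWAT) white adipose tissue of male C57BL/6N mice, a substrain that the treatment protocol gives as C57BL/6NJ. In eWAT there were 4 libraries from wild type mice on normal chow (ND), 5 from wild type mice on a high fat diet (HFD) and 5 from HFD-fed Acod1-/- mice, and in iWAT 3, 5 and 3, which makes 25 libraries. Fat made up 60% of the calories of the HFD, which began at 5 weeks of age and lasted 16 weeks, except that the labels give 17 and 18 weeks for the iWAT libraries of Acod1-/- HFD mice 2 and 3. The Acod1-/- mice carried the deletion in the whole body, and no ND-fed Acod1-/- group was among the samples, so genotype was compared under HFD only. Whether libraries of both depots came from the same mice is not stated.

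Adipose progenitors lie in the connective tissue and around the vessels of fat, and most of them carry PDGFRα, CD34 and SCA-1, the product of Ly6a. Single-cell work in mouse subcutaneous fat has placed DPP4+ cells, which also carry PI16 and CD55 and line the reticular interstitium, upstream of committed preadipocytes that carry more ZFP423 and DLK1. Another population is marked by CD142, the product of F3, and has been described as restraining the differentiation of its neighbours. In whole tissue, fewer cells of a type and less RNA per cell cannot be told apart, and none of these genes is found in progenitors alone: Cd34 is also an endothelial gene, Pdgfrb a mural cell gene, Ly6a an endothelial and lymphocyte gene, and Dpp4 and Cd55 are made by lymphocytes and epithelia.

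Of the 3 markers of the interstitial population, Pi16 rose with HFD in both depots, Cd55 in eWAT and Dpp4 in neither. In eWAT the rise of Pi16 only just passed, and neither it nor that of Cd55 was kept in every fit, as given further on. The windows around the start sites of the 3 genes are shown so that they can be set side by side. Each is a RefSeq promoter of GRCm38.p6, 250 bases before the start and 50 from it, read 5′ to 3′ on the gene's strand. RefSeq promoters were matched for 8 of the 10 genes. Capitals mark the matches to 6 motifs that were searched on both strands (TATAAA or TATA box, GGGCGG or GC box, CACGTG or E box, the EBF palindrome of 10 letters, TGANTCA of AP-1 and TTGCGCAA of C/EBP).
Pi16, chr17:29318632-29318931, plus strand: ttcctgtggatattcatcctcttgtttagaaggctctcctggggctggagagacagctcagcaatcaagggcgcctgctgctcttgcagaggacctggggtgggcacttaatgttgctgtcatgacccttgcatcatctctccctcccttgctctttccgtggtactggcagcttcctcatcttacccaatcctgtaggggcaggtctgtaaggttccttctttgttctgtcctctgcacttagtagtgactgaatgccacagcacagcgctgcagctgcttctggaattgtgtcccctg
Dpp4, chr2:62412182-62412481, minus strand: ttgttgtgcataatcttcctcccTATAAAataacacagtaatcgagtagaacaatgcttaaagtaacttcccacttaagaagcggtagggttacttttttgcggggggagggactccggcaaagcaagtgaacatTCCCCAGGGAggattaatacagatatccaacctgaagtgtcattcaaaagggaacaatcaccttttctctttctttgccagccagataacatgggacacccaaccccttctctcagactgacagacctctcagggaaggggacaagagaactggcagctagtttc
Cd55, chr1:130462695-130462994, minus strand: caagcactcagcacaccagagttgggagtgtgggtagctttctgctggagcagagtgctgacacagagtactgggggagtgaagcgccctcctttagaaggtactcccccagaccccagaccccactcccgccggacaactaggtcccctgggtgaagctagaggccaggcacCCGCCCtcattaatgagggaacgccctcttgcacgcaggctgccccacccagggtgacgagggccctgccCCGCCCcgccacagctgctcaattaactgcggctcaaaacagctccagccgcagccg
The RefSeq start of Pi16 lies inside the span of the gene given further on, whose annotated start is earlier. The Pi16 window held none of the 6 motifs. The Dpp4 window held TATAAA at position -227 from the start and the EBF palindrome at -115. Of all 32851 promoters of this length, 13.6% hold TATAAA at any position and 0.904% hold the EBF palindrome. The Cd55 window held GGGCGG at 2 places in its reverse form, and this motif is in 35.7% of all promoters. A match is a run of letters and not a bound site, and binding was not measured here.

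The libraries held 31.41 to 52.34 M reads counted on genes, and 9 of the 10 markers were well above the counting floor, with 165 reads at the least. Dlk1 had at most 57 reads and is treated apart. Mitochondrial genes took 3.96% to 13.21% of the counted reads, most in HFD-fed Acod1-/- eWAT mouse 2 and next in ND-fed iWAT mouse 3 (11.58%). The part of this in the markers' values was not tested. Depot genes went with the tissue labels: Wt1 was at 6.01 to 18.2 CPM in eWAT and at most 0.0516 CPM in iWAT. CPM are reads per 1 M reads counted, with library totals scaled by the TMM normalization used for the fits. Acod1 had 0 to 9 reads in each library, which does not check the genotype. The numbers that open the files' column headers split the libraries into 14 and 11. They were read here as sequencing series 1 and 2, which is an inference. Series 2, of 11 libraries, holds all ND libraries but only 1 HFD library of each of the 4 HFD groups. Diet and series can thus be told apart only through these. All 3 iWAT ND libraries were rich in lymphocyte RNA: the 3 B cell genes used here summed to 293 to 442 CPM in them, with Ms4a1 at 98.2 to 156 CPM, against a sum of 1.77 to 33.7 CPM in HFD-fed wild type iWAT, where mouse 5 was the highest. Epithelial genes stood out in eWAT ND mouse 2, with a sum of 384 CPM against 31.7 to 74.1 CPM in the rest of its group, and in iWAT Acod1-/- HFD mouse 2, with 587 CPM against 3.46 and 4.18 CPM.

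**Figure D1:**
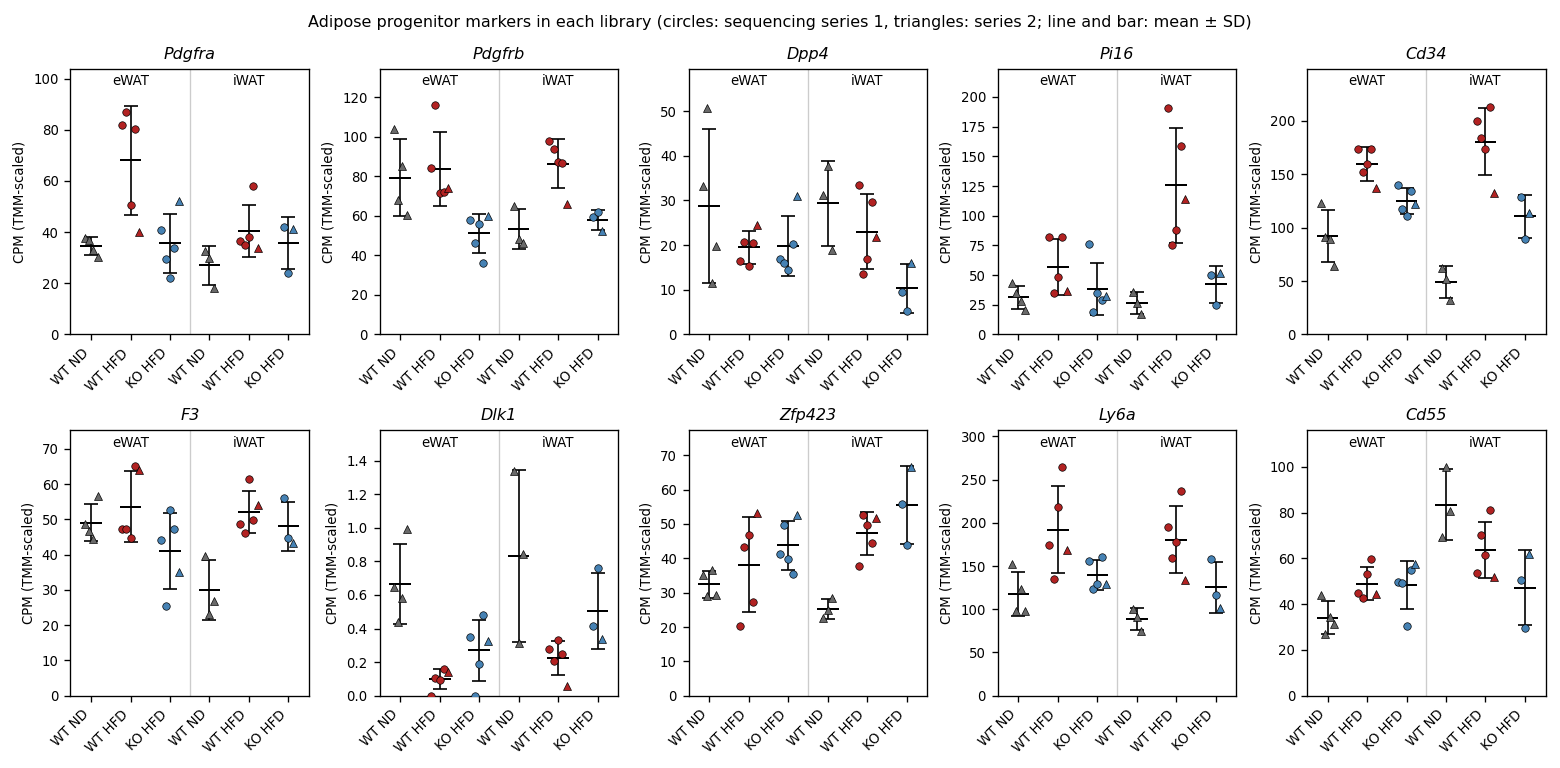
Levels of the 10 markers in CPM after TMM normalization, on the vertical axis from 0, in each of the 25 libraries, by depot, genotype (WT wild type, KO Acod1-/-) and diet; circles and triangles are the sequencing series and the line with bar is mean ± SD. In iWAT all 5 HFD-fed wild type libraries lie above all 3 ND libraries for Pi16 and Cd34, whereas those of Dpp4 and Cd55 overlap.

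The quasi-likelihood test of edgeR was run on the counts of all genes of a depot, with a Benjamini-Hochberg adjusted p under 0.1 as the call. Levels are given as CPM after TMM normalization. Each change is a fitted log2 fold change ± a standard error, taken as its size over the square root of the test's F statistic. Only 9 markers entered the tests, since Dlk1 was under the mean of 1 CPM that a gene needed. In eWAT, 5 of the 9 rose with HFD in wild type mice and 0 fell, where 24.8% of all genes tested rose and 26.9% fell. In iWAT, 7 of the 9 rose with HFD and 0 fell, where 25.9% of all genes rose and 24.2% fell. HFD-fed Acod1-/- eWAT had 2 of the 9 lower than HFD-fed wild type eWAT and 0 higher, against 10.8% and 9.13% of all genes. In iWAT the genotype comparison called 0 markers and 0% of all genes in edgeR's test. At an unadjusted p under 0.05 it held 5 of the 9 markers and 2468 of 14801 genes (16.7%). DESeq2's Wald test called 4 markers lower there, and 4.27% of all genes lower. Counting groups that did not overlap, HFD lay above ND for 2 of the 10 markers in eWAT (17.2% of all genes) and for 7 in iWAT (23.0%), and Acod1-/- lay below wild type HFD for 1 in eWAT (4.34%) and for 3 in iWAT (4.59%). The median fitted change of the 9 markers was 0.52 for eWAT diet, 0.83 for iWAT diet, -0.39 for eWAT genotype and -0.55 for iWAT genotype, beside medians over all genes of -0.038, 0.00431, 0.0436 and -0.0149. The diet and genotype comparisons of a depot share their HFD-fed wild type libraries, so a high value there moves both in opposite directions.

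**Figure D2:**
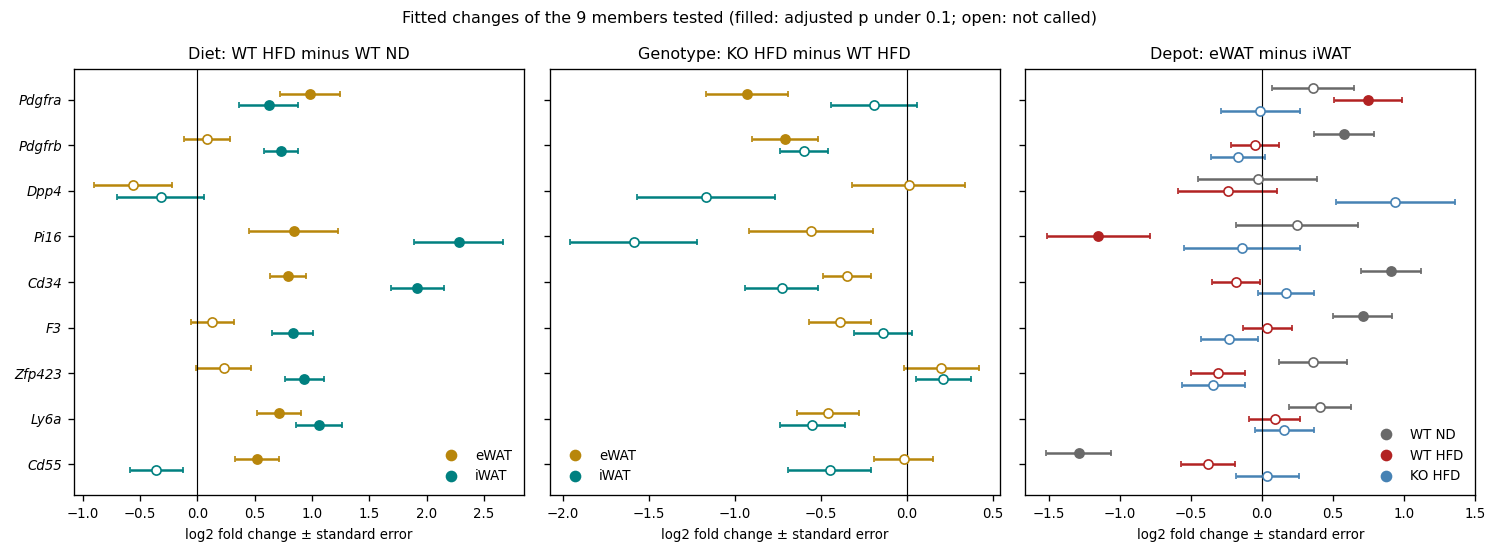
Fitted log2 fold changes (horizontal axis) ± standard error of the 9 markers tested, for diet and genotype in each depot and for eWAT minus iWAT in each condition; filled points have an adjusted p under 0.1. Pi16 and Cd34 have the largest diet changes in iWAT, 2.28 and 1.92, and none of the depot differences is called in Acod1-/- mice.

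Pdgfra (ENSMUSG00000029231, GRCm38 chr5:75152292-75198215, plus strand) encodes the receptor for PDGF-A and is the usual mark of adipose progenitors and fibroblasts. In eWAT it stood at 37.7, 36.9, 33.1 and 30.1 CPM in the ND libraries, at 81.7, 87.1, 50.7, 80.4 and 40 CPM in HFD-fed wild type and at 40.8, 29.3, 21.9, 33.7 and 52.1 CPM in HFD-fed Acod1-/- mice. Every HFD-fed wild type library was above every ND library, and the Acod1-/- libraries overlapped both groups. It rose 1.97-fold with HFD (0.98 ± 0.26, adjusted p = 0.00908) and was lower in Acod1-/- mice (-0.93 ± 0.24, adjusted p = 0.0263). The lowest HFD-fed wild type library, mouse 5, was the one placed in the series of the ND libraries. The highest Acod1-/- library, mouse 5, was also from that series. These 2 libraries went the other way, at 40 CPM in wild type and 52.1 CPM in Acod1-/-. Among series 1 libraries alone, a split made after the values were seen, the ranges were 50.7 to 87.1 CPM in wild type and 21.9 to 40.8 CPM in Acod1-/- mice. They did not overlap (-1.26, adjusted p = 0.00563). In iWAT, Pdgfra was at 32.6, 30.0 and 18.3 CPM on ND, 36.6, 34.8, 38.2, 58.2 and 33.6 CPM on HFD and 42, 24 and 41.2 CPM in Acod1-/- mice. The HFD libraries were just above the ND libraries there, by 0.62 ± 0.26 (adjusted p = 0.0754), a call that was lost without any 1 of 4 libraries (lowest value 0.37, highest adjusted p = 0.289), and the genotype difference was not called (-0.19 ± 0.25, adjusted p = 0.753).

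Pdgfrb (ENSMUSG00000024620) encodes the receptor for PDGF-B, which is carried by pericytes, smooth muscle and perivascular progenitors. Its eWAT levels were 104, 68.0, 85.4 and 60.2 CPM on ND, 84.0, 116, 71.8, 72.3 and 74.0 CPM in HFD-fed wild type and 57.7, 46.2, 55.9, 36.4 and 60.0 CPM in HFD-fed Acod1-/- mice. ND and HFD overlapped widely (0.08 ± 0.20, adjusted p = 0.776), whereas every Acod1-/- library was below every HFD-fed wild type library. The genotype difference was -0.71 ± 0.19 (adjusted p = 0.0290). In iWAT, Pdgfrb was at 64.9, 48.5 and 46.3 CPM on ND, 97.9, 93.9, 87.2, 86.9 and 66.2 CPM on HFD and 59.3, 62.1 and 52.2 CPM in Acod1-/- mice. It rose with HFD (0.73 ± 0.15, adjusted p = 0.00254), and was again lower in each Acod1-/- library than in each wild type one, without a call (-0.60 ± 0.14, adjusted p = 0.137). It was called by DESeq2's Wald test (-0.57, adjusted p = 0.0201), among series 1 libraries alone (-0.59, adjusted p = 0.0336), without wild type HFD mouse 5 (-0.68, adjusted p = 0.0706) and without Acod1-/- mouse 3 (-0.51, adjusted p = 0.0879). The fits of series 1 and without Acod1-/- mouse 3 both keep only Acod1-/- mice 1 and 2. So the eWAT changes were called for Pdgfra with both diet and genotype, and for Pdgfrb with genotype. Of the 10 mural markers listed, 0 were called in the eWAT genotype comparison, with a median of 0.14, and with HFD 5 fell and 1 rose.

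The PDGF ligands changed with diet in both depots, in 2 directions in eWAT and in 1 in iWAT. Of the 4 ligand genes, Pdgfa rose in eWAT with HFD (0.92 ± 0.25, adjusted p = 0.00973) and Pdgfb fell (-0.79 ± 0.20, adjusted p = 0.00656), while in iWAT Pdgfa rose by 1.37 ± 0.17 (adjusted p = 0.00022), Pdgfd by 1.27 ± 0.26 (adjusted p = 0.00318) and Pdgfc by 0.73 ± 0.17 (adjusted p = 0.00677). By the test of the difference between depots, the diet change was lower in eWAT for 3 of the 4 ligands, of which Pdgfd differed by -1.58 ± 0.35 (adjusted p = 0.00300). The genotype comparison called 0 of the 4 in either depot.

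Cd34 (ENSMUSG00000016494, GRCm38 chr1:194938819-194961279, plus strand) encodes a sialomucin of stem cells and small vessels. It had the smallest adjusted p among the markers in both diet comparisons. Its eWAT levels were 123, 91.3, 89.8 and 64.2 CPM on ND, 174, 152, 160, 174 and 137 CPM in HFD-fed wild type and 140, 117, 111, 134 and 122 CPM in HFD-fed Acod1-/- mice. It rose 1.73-fold with HFD (0.79 ± 0.16, adjusted p = 0.00184). Wild type HFD and ND did not overlap, and the Acod1-/- libraries lay between and overlapped the ND and HFD groups at their edges (-0.35 ± 0.14 against HFD-fed wild type, adjusted p = 0.121). In iWAT it stood at 62.1, 52.1 and 32.5 CPM on ND, 200, 184, 174, 213 and 132 CPM on HFD and 129, 89.2 and 114 CPM in Acod1-/- mice. The 3 iWAT groups did not overlap, in the order ND, HFD-fed Acod1-/- and HFD-fed wild type. The diet change was 3.79-fold (1.92 ± 0.23, adjusted p = 0.000173). The genotype difference of -0.73 ± 0.21 was not called by edgeR (adjusted p = 0.157). It was called by DESeq2's Wald test (adjusted p = 0.0398) and among series 1 libraries alone (-0.82, adjusted p = 0.0458), which keep only Acod1-/- mice 1 and 2. The diet change of Cd34 was larger in iWAT than in eWAT, by the interaction (eWAT minus iWAT, -1.09 ± 0.27, adjusted p = 0.00563), a comparison in which 15% of all genes were called lower and 14% higher. Of 8 endothelial genes, 8 rose beside it in iWAT with HFD (median 0.78), whereas in eWAT, where Cd34 rose, 6 fell and 0 rose (median -0.72). Their diet change was, like that of Cd34, lower in eWAT by the interaction for 8 of 8 (median -1.42), and their part in the Cd34 values was not tested.

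Ly6a (ENSMUSG00000075602, GRCm38 chr15:74994877-74998031, minus strand) encodes SCA-1. It was the most abundant of the 10 per length, with mean FPKM values of 80.0 to 160 over the 6 groups, while the next gene of each group was between 16.3 and 24.3 FPKM, that is Cd34, F3 or, in ND-fed iWAT, Cd55. In eWAT it went from 152, 97.9, 123 and 97.8 CPM on ND to 174, 135, 218, 265 and 169 CPM in HFD-fed wild type (0.71 ± 0.19, adjusted p = 0.00997). HFD-fed Acod1-/- eWAT had 156, 124, 129, 160 and 129 CPM, which was not called against wild type (-0.46 ± 0.18, adjusted p = 0.102). In iWAT, the levels were 100, 90.9 and 74.9 CPM on ND, 195, 159, 178, 237 and 134 CPM on HFD and 158, 117 and 101 CPM in Acod1-/- mice. Ly6a rose 2.08-fold with HFD in iWAT (1.06 ± 0.20, adjusted p = 0.00177). The diet changes of both depots did not differ detectably (-0.32 ± 0.28, adjusted p = 0.457). The iWAT ND libraries held the most lymphocyte RNA, and the part of lymphocytes in the Ly6a values was not tested.

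Pi16 (ENSMUSG00000024011, GRCm38 chr17:29317680-29330593, plus strand), a peptidase inhibitor that marks fibroblasts of the reticular interstitium, changed most of the 10 in iWAT. It had 35.7, 26.7 and 17.1 CPM in the ND libraries, 191, 75.7, 87.8, 159 and 114 CPM in HFD-fed wild type and 50.4, 24.5 and 51.9 CPM in HFD-fed Acod1-/- mice. The lowest wild type HFD value was above every ND value and every Acod1-/- value, and the Acod1-/- libraries overlapped ND. Pi16 rose 4.86-fold with HFD (2.28 ± 0.39, adjusted p = 0.00112). The genotype difference, a mean of 42.3 ± 15.4 CPM (SD, n = 3) against 126 ± 48.6 CPM (n = 5), was -1.59 ± 0.37 and was not called by edgeR (adjusted p = 0.137). It was called by DESeq2's Wald test (adjusted p = 0.00101), without Acod1-/- mouse 3 (-1.75, adjusted p = 0.0435) and among series 1 libraries alone (-1.77, adjusted p = 0.0729). The fits without mouse 3 and of series 1 both keep only Acod1-/- mice 1 and 2, so they are not separate checks. The genotype difference was smaller without Acod1-/- mouse 2, the library with epithelial genes (-1.30, adjusted p = 0.297).

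In eWAT, Pi16 was at 43, 34.9, 27.8 and 20.4 CPM on ND, 81.8, 34.6, 48.4, 82.2 and 36.2 CPM in HFD-fed wild type and 76.3, 18.9, 35.3, 29.4 and 32.0 CPM in HFD-fed Acod1-/- mice. The ND and HFD groups overlapped. The rise of 0.84 ± 0.39 only just passed (adjusted p = 0.0924), was lost without any 1 of 7 libraries (highest adjusted p = 0.219) and fell by more than 1.5 times in a fit that held the sequencing series (0.39, adjusted p = 0.603). The genotype difference was not called (-0.56 ± 0.36, adjusted p = 0.324), and without Acod1-/- mouse 1, the highest of its group, it was -0.97 (adjusted p = 0.0744). Among HFD-fed wild type mice Pi16 was lower in eWAT than in iWAT (-1.15 ± 0.36, adjusted p = 0.0381, lost without iWAT mouse 1 at 0.104), where 7.75% of all genes were called lower and 10.8% higher. Its diet change also differed between depots (-1.40 ± 0.57, adjusted p = 0.0805, lost without any 1 of 9 libraries, up to 0.198).

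Dpp4 (ENSMUSG00000035000, GRCm38 chr2:62330073-62412231, minus strand) encodes the dipeptidyl peptidase whose surface form names the interstitial population, and it did not pass the test with diet in either depot. In iWAT it was at 31.3, 37.7 and 19 CPM on ND, 33.4, 13.5, 16.8, 29.6 and 21.9 CPM on HFD and 9.57, 5.22 and 16.1 CPM in HFD-fed Acod1-/- mice. ND and HFD overlapped (-0.32 ± 0.38, adjusted p = 0.527). The Acod1-/- libraries had the 3 values at the low end with only 1 wild type HFD library, at 13.5 CPM, among them; that difference was -1.17 ± 0.40 (adjusted p = 0.192 in edgeR, 0.0546 in DESeq2's Wald test), -1.64 without Acod1-/- mouse 3 (adjusted p = 0.0439) and -0.84 without mouse 2 (adjusted p = 0.406). In eWAT, Dpp4 was at 33.2, 50.8, 11.5 and 19.7 CPM on ND, 16.5, 20.8, 15.3, 20.5 and 24.5 CPM on HFD and 17.0, 15.9, 14.4, 20.2 and 31.1 CPM in Acod1-/- mice. The highest ND library, mouse 2, is the one with epithelial genes; the diet value was -0.56 ± 0.34 with it (adjusted p = 0.200) and -0.13 without it (adjusted p = 0.768). Without ND mouse 3, the lowest, it was -0.82 and called (adjusted p = 0.0433), so the value turned on these libraries.

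The ratio of Pi16 to Dpp4 within a library, looked at after the values were seen and given as a description, does not depend on the library's total. As a ratio of CPM without correction for length it can be compared between libraries only. In iWAT it was 0.707 to 1.14 in the ND libraries, 5.22 to 5.72 in HFD-fed wild type and 3.22 to 5.27 in HFD-fed Acod1-/- mice. Across the 5 HFD-fed wild type libraries the ratio thus stayed in a narrow band while Pi16 itself ranged from 75.7 to 191 CPM and Dpp4 from 13.5 to 33.4 CPM. In eWAT the groups overlapped, with 0.687 to 2.41 on ND, 1.47 to 4.97 on HFD and 1.03 to 4.48 in Acod1-/- mice. The ratio of Pi16 to Pdgfra showed the same iWAT order for wild type mice, 0.889 to 1.10 on ND and 2.17 to 5.21 on HFD, and was 1.02 to 1.26 in Acod1-/- mice. The ND libraries of iWAT carried lymphocyte RNA, which can hold Dpp4 from T cells, with Cd3e at 36.6 to 49.5 CPM against 0.869 to 8.21 CPM on HFD in wild type mice; its part in these ratios was not tested.

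**Figure D3:**
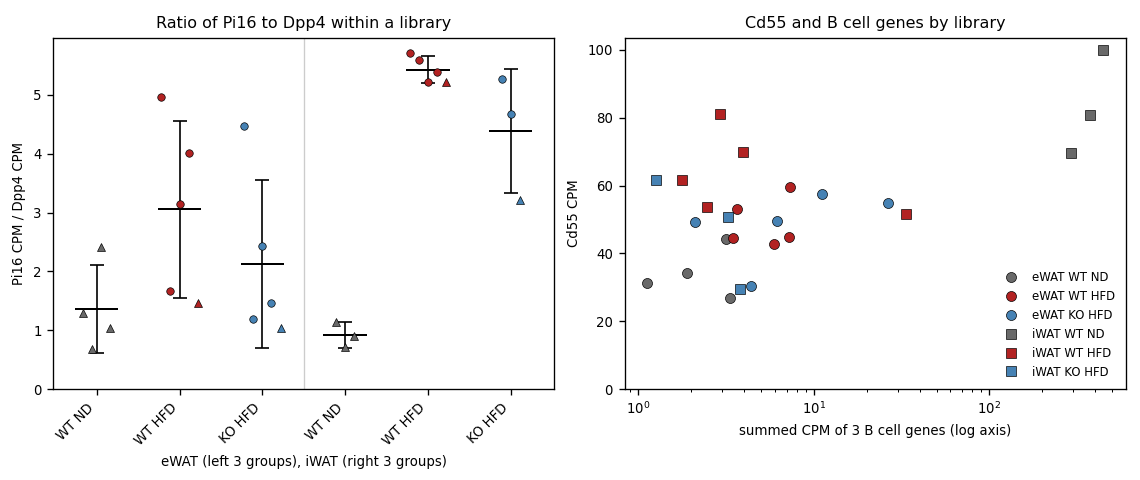
Left, ratio of Pi16 to Dpp4 CPM in each library by group (points; line and bar, mean ± SD; circles series 1, triangles series 2), which lies between 5.22 and 5.72 in HFD-fed wild type iWAT and between 0.707 and 1.14 in ND iWAT. Right, Cd55 CPM against the summed CPM of 3 B cell genes on a log axis for the 25 libraries; the 3 ND iWAT libraries lie apart at 293 to 442 CPM of B cell genes, with Cd55 at 69.5 to 100 CPM.

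Cd55 (ENSMUSG00000026399, GRCm38 chr1:130439027-130462744, minus strand) encodes decay-accelerating factor, which protects cells from complement. In eWAT it was at 44.2, 26.9, 34.2 and 31.2 CPM on ND and 44.7, 42.7, 53.1, 59.6 and 44.6 CPM in HFD-fed wild type, a rise of 0.52 ± 0.19 (adjusted p = 0.0369), and at 49.7, 49.4, 30.5, 55 and 57.6 CPM in Acod1-/- mice, which overlapped wild type HFD (-0.02 ± 0.17, adjusted p = 0.962). In iWAT its mean was highest on ND, at 69.5, 100 and 80.9 CPM, then 53.6, 70.0, 61.6, 81.2 and 51.7 CPM on HFD and 50.6, 29.4 and 61.8 CPM in Acod1-/- mice. The iWAT groups overlapped and neither comparison was called (-0.36 ± 0.23, adjusted p = 0.233 for diet, and -0.45 ± 0.24, adjusted p = 0.378 for genotype). A fall with diet was called with only the groups compared (-0.39, adjusted p = 0.0799) and without Acod1-/- mouse 2 (-0.39, adjusted p = 0.0918). None of the other alternative fits called it. The diet changes of both depots differed (0.91 ± 0.30, adjusted p = 0.0342; 0.77 and 0.121 without iWAT ND mouse 2). On ND, Cd55 was lower in eWAT than in iWAT in every library (-1.29 ± 0.23, adjusted p = 0.000363), where 14.2% of all genes were called lower and 17.5% higher. Lymphocyte genes went the same way there, 3 of 3 B cell genes lower in ND-fed eWAT, of which Cd79a differed by -7.40 ± 1.03 (adjusted p = 2.29e-05). The part of lymphocytes in the Cd55 values was not tested. The neighbouring paralog Cd55b had 0 to 130 reads against 927 to 5133 for Cd55.

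F3 (ENSMUSG00000028128, GRCm38 chr3:121723537-121735048, plus strand) encodes tissue factor, CD142. Its eWAT levels were 48.8, 46.6, 44.4 and 56.5 CPM on ND, 47.3, 47.3, 44.6, 65.1 and 63.9 CPM in HFD-fed wild type and 44.3, 25.3, 52.7, 47.4 and 35.2 CPM in Acod1-/- mice. The 3 groups overlapped and neither comparison was called (0.13 ± 0.19, adjusted p = 0.605; -0.39 ± 0.18, adjusted p = 0.171). In iWAT, F3 rose with HFD from 39.6, 23.2 and 27.0 CPM to 48.7, 46.2, 61.4, 49.8 and 54.0 CPM (0.83 ± 0.18, adjusted p = 0.00356), with 56.0, 44.6 and 43.4 CPM in Acod1-/- mice (-0.14 ± 0.17, adjusted p = 0.728). On ND it was higher in eWAT than in iWAT, with every library apart (0.71 ± 0.21, adjusted p = 0.0169). The difference between the diet changes just passed (-0.67 ± 0.27, adjusted p = 0.0817) and was lost without any 1 of 9 libraries, up to 0.256. Of the 7 other genes listed for the CD142+ population, 4 rose in iWAT with HFD, including Gdf10 (1.33 ± 0.26, adjusted p = 0.00219) and Mgp (1.68 ± 0.42, adjusted p = 0.00875), and 3 were lower in Acod1-/- eWAT, Mgp (-2.0 ± 0.44, adjusted p = 0.0146), Igfbp3 (-0.81 ± 0.23, adjusted p = 0.0368) and Clec11a (-1.24 ± 0.38, adjusted p = 0.0515). Mgp encodes matrix Gla protein, an inhibitor of calcification.

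Zfp423 (ENSMUSG00000045333, GRCm38 chr8:87661810-87959595, minus strand), a zinc finger factor that commits cells to the preadipocyte state, showed its only call in iWAT. It rose there from 22.6, 25 and 28.3 CPM on ND to 37.8, 52.7, 49.7, 44.5 and 51.7 CPM on HFD (0.93 ± 0.17, adjusted p = 0.00157) and was at 55.7, 43.9 and 66.6 CPM in Acod1-/- mice (0.21 ± 0.16, adjusted p = 0.552). The highest value of all 25 libraries was thus that of Acod1-/- HFD mouse 3 in iWAT. In eWAT the levels were 35.0, 29.1, 36.6 and 29.2 CPM on ND, 20.3, 43.2, 46.9, 27.2 and 53.1 CPM in HFD-fed wild type and 41.3, 49.8, 39.8, 35.4 and 52.7 CPM in Acod1-/- mice. The wild type HFD group spread over both others, and neither diet (0.23 ± 0.24, adjusted p = 0.440) nor genotype (0.20 ± 0.22, adjusted p = 0.593) was called. The interaction of diet and depot was -0.67 ± 0.31 (adjusted p = 0.123). Zfp423 was the 1 marker of the 9 with a fitted value above 0 in the iWAT genotype comparison.

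Dlk1 (ENSMUSG00000040856, GRCm38 chr12:109452823-109463336, plus strand), the imprinted preadipocyte factor Pref-1 that holds cells back from differentiation, was the scarcest of the 10, at mean values of 0.0174 to 0.159 FPKM. In eWAT it was at 0.646, 0.437, 0.581 and 0.995 CPM on ND (23 to 51 reads), at 0, 0.104, 0.0916, 0.156 and 0.141 CPM in HFD-fed wild type (0 to 7 reads) and at 0.349, 0, 0.191, 0.482 and 0.327 CPM in HFD-fed Acod1-/- mice (0 to 18 reads). Every wild type HFD library was below every ND library, as for 18% of all genes tested, by 6.75-fold between the means (two-sided exact permutation test, p = 0.0159, the smallest that this design allows; 0.0635 adjusted over the 4 comparisons). In iWAT it was at 1.34, 0.312 and 0.842 CPM on ND, 0.276, 0.204, 0.329, 0.246 and 0.0602 CPM on HFD and 0.413, 0.760 and 0.340 CPM in Acod1-/- mice. Here diet gave an exact permutation p of 0.0714 (0.0952 adjusted), and each Acod1-/- library was above each wild type HFD library, as for 3.66% of all genes tested, 2.26-fold between the means (exact permutation p = 0.0357, the smallest possible; 0.0714 adjusted). The eWAT genotype groups overlapped (exact permutation p = 0.0952, also 0.0952 adjusted). After adjustment over these 4 comparisons alone, all 4 were under 0.1 and 0 were under 0.05. The calls of the other markers were adjusted over every gene in the fit, so the Dlk1 permutation values are not calls of that kind. In edgeR's fit without a filter, the 2 diet values were -2.70 (adjusted p = 0.0607) and -1.86 (adjusted p = 0.0772), and the genotype values 1.40 (adjusted p = 0.371) in eWAT and 1.17 (adjusted p = 0.543) in iWAT.

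Other imprinted growth genes moved in both directions. Mest, known to rise in expanding fat, had the largest change of the 8 tested, 3.56 ± 0.59 in eWAT (adjusted p = 0.000814) and 6.17 ± 0.79 in iWAT (adjusted p = 0.000261) with HFD. Plagl1, a growth-restraining zinc finger gene, fell in eWAT with HFD (-1.59 ± 0.28, adjusted p = 0.00107) and was higher in Acod1-/- than in wild type HFD eWAT (1.31 ± 0.27, adjusted p = 0.0131). In all, HFD raised 1 and lowered 3 of the 8 in eWAT and raised 4 and lowered 1 in iWAT.

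Of 9 further genes of DPP4+ interstitial progenitors, 8 rose with HFD in iWAT and 0 fell, with a median of 1.68. Pcolce2, which enhances collagen processing, went from a mean of 13.2 to 175 CPM (3.76 ± 0.60, adjusted p = 0.000780), Sema3c, a secreted semaphorin, from 31.3 to 134 CPM (2.13 ± 0.41, adjusted p = 0.00223) and Ackr3, an atypical chemokine receptor, from 13.7 to 42.7 CPM (1.68 ± 0.26, adjusted p = 0.000649). The same list was split in eWAT, where 2 of 8 rose, among them Pcolce2 (2.61 ± 0.50, adjusted p = 0.00156), and 2 fell, Bmp7 (-1.98 ± 0.54, adjusted p = 0.0107) and Efhd1 (-1.27 ± 0.39, adjusted p = 0.0190). By the interaction the diet change was lower in eWAT for 6 of 9, of which Efhd1 (-2.39 ± 0.59, adjusted p = 0.00637) had the smallest adjusted p. The genotype comparison called 0 of these genes in either depot.

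Among 6 further genes of committed preadipocytes, 4 rose in iWAT with HFD, including Col15a1 (1.47 ± 0.32, adjusted p = 0.00413), a basement membrane collagen, and Icam1 fell (-1.27 ± 0.20, adjusted p = 0.000765). Icam1, an adhesion molecule that lymphocytes also make, was lower in Acod1-/- than in wild type HFD eWAT (-1.04 ± 0.20, adjusted p = 0.0111). Of 13 commitment factors, 4 rose and 4 fell in eWAT with HFD and 5 rose and 1 fell in iWAT. Ebf2, which drives brown and beige fat genes, fell in both depots, by -1.01 ± 0.19 in eWAT (adjusted p = 0.00150) and -0.87 ± 0.16 in iWAT (adjusted p = 0.00183), and was higher in Acod1-/- than in wild type HFD eWAT (0.51 ± 0.18, adjusted p = 0.0799). Zfp521, the antagonist of Zfp423 and EBF factors, was lower in Acod1-/- eWAT (-0.79 ± 0.22, adjusted p = 0.0365).

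Stromal fibroblast genes moved beside the markers with diet in both depots and with genotype in eWAT. With HFD, 10 of 10 rose in eWAT (median 1.24) and 9 of 10 in iWAT (median 1.79), where Thy1, which T cells also make, was the 1 that fell. Cd248, endosialin, rose by 1.89 ± 0.28 in eWAT (adjusted p = 0.000474) and 2.78 ± 0.37 in iWAT (adjusted p = 0.000302). In Acod1-/- eWAT 7 of 10 were lower (median -0.93), led by the collagen-binding Lum (-2.08 ± 0.42, adjusted p = 0.0123). The summed level of the 10 genes was 2454 to 3228 CPM in ND-fed eWAT, 4241 to 8161 CPM in wild type HFD and 2596 to 4666 CPM in Acod1-/- HFD, and in iWAT 2040 to 2919, 4797 to 8278 and 4172 to 6429 CPM. Macrophage genes also moved. In eWAT 8 of 8 rose with HFD (median 3.08), from sums of 457 to 896 CPM up to 2051 to 6128 CPM, and 8 of 8 were lower in Acod1-/- mice (median -2.42), at 455 to 1758 CPM. In iWAT 6 of 8 rose with HFD (median 1.96), from 450 to 540 CPM up to 571 to 1444 CPM, and 0 of 8 were called with genotype (median -1.22). Adipocyte genes went the other way in eWAT, where 4 of 7 fell with HFD and 0 rose (median -0.58) and 4 were higher and 0 lower in Acod1-/- mice (median 0.67). In iWAT 3 of the 7 adipocyte genes rose with HFD and 1 fell (median 0.10). The part that a changed mix of cells has in the markers' values was not tested. A CPM is relative to the other RNA of its library, also after TMM scaling, so a large rise elsewhere can lower it.

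**Figure D4:**
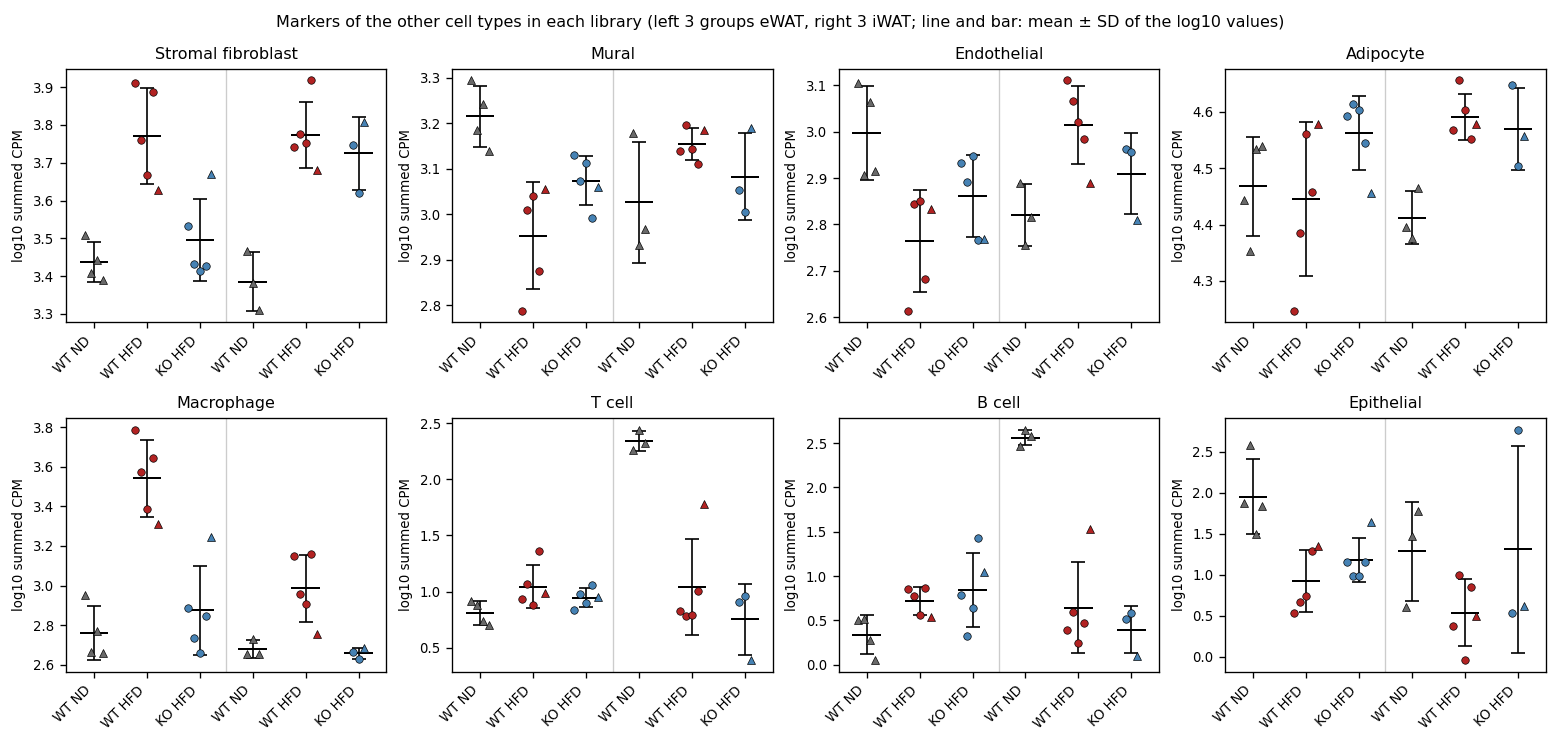
Summed CPM of the marker genes of 8 other cell types on a log10 scale in each library, by group (points; line and bar, mean ± SD of the log10 values; circles series 1, triangles series 2). B cell and T cell genes stand apart in the 3 ND-fed iWAT libraries, epithelial genes in eWAT ND mouse 2 and iWAT Acod1-/- HFD mouse 2, and macrophage genes in HFD-fed wild type eWAT.

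The 1 HFD-fed wild type library per depot that shares its sequencing series with the ND libraries gives the diet comparison within a series, without replicates. In iWAT this library, mouse 5, was above all 3 ND libraries for each of the 7 markers called, with Pi16 at 114 CPM against at most 35.7 CPM and Cd34 at 132 CPM against at most 62.1 CPM. That order was fixed beforehand, since the HFD and ND groups did not overlap for these 7, and it is no separate check. The share of all genes placed this way was not counted in either depot. On counts scaled to the library total alone, 5 of the 7 stayed above, Pi16, Cd34, F3, Zfp423 and Ly6a, and Pdgfra and Pdgfrb came within the ND range. In eWAT, mouse 5 was above all 4 ND libraries for 6 markers, of which Pdgfra, Cd34, Ly6a and Cd55 are among the 5 called, and on the library total alone for F3 and Zfp423 only. Its Pdgfra of 40 CPM was close to the highest ND value of 37.7 CPM. For Pdgfra and Cd34 the eWAT groups did not overlap either, so their place was fixed likewise. With the series as a term in the fit, 6 markers were called higher in iWAT (21.4% of all genes) and 2 in eWAT (17.5%), Pdgfra (1.02, adjusted p = 0.0626) and Cd34 (0.66, adjusted p = 0.0371). The eWAT diet calls of Pi16, Ly6a and Cd55 were not kept in that fit, with adjusted p values of 0.603, 0.126 and 0.110.

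Between depots, 4 markers differed on ND, and the ND libraries did not overlap for Cd34, F3 and Zfp423, all higher in eWAT (19% of all genes), and for Cd55, lower in eWAT (16.9%). Of these, Zfp423 was not called (0.36, adjusted p = 0.284). Cd34 (0.91 ± 0.21, adjusted p = 0.00287), F3 and Pdgfrb (0.58 ± 0.21, adjusted p = 0.0438) were higher in eWAT and Cd55 was lower. Of all genes, 17.5% were called higher and 14.2% lower on ND. In HFD-fed wild type mice 2 markers differed, Pdgfra higher in eWAT (0.75 ± 0.24, adjusted p = 0.0436) and Pi16 lower. That is 1 of the 9 each way, not far from the 10.8% of all genes called higher and 7.75% called lower. In HFD-fed Acod1-/- mice 0 were called by edgeR, where 2.01% of all genes were called higher and 1.80% lower. Dpp4 had the largest value there, 0.94 ± 0.42 (adjusted p = 0.308). The genotype changes of eWAT and iWAT were not shown to differ for any marker (0 called, and 0.00665% of all genes), with the largest values for Dpp4 (1.17 ± 0.54, adjusted p = 0.468) and Pi16 (1.01 ± 0.55, adjusted p = 0.551).

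Over the 25 libraries, the genes most like each marker were taken as those with the smallest root mean square difference of centred log2 CPM. For Cd34 this was Fbln5 at 0.22, the elastic fibre protein fibulin-5, where Cd34 itself varied with a root mean square of 0.64. For Pi16 it was Fndc1 at 0.50 (own variation 0.91), for Pdgfra Rbpj and Axl at 0.24 (0.54), for Pdgfrb Arhgap31 at 0.20 (0.40) and for Ly6a Ifitm3 at 0.22 (0.44). For Zfp423 it was Carhsp1 at 0.22 (0.44), for F3 Ifih1 at 0.24 (0.37) and for Cd55 Sesn3 at 0.30 (0.47). For Dpp4 it was Atp8b2 at 0.48 (0.68), and for Dlk1 Kcnq5 at 0.74 (1.21), so the distances of Dpp4, Pi16 and Dlk1 to their nearest gene were larger than those of the others. Among the 10 themselves, Cd34 and Ly6a were the nearest pair at 0.33.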

How the data were processed

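The authors used cutadapt for trimming, removed short and contaminant reads and mapped what was left with STAR on GRCm38; the counting program and its strand setting are not given in the sources used here. They deposited, per library, counts of reads on genes, cDNA lengths and FPKM values. The deposited FPKM values could be recomputed from counts and cDNA lengths within 0.0005, and serve here only to set genes side by side. Reads on no feature (6.41% to 11.88%) and ambiguous reads (1.52% to 2.07%) stayed out of all totals, and intervals or floors cover counting error only. Gene identifiers were joined to GENCODE vM21, which gave 54723 symbols and none for 29 genes. Promoters are from RefSeq (GRCm38.p6).

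The deposited counts were fitted with edgeR 4.0.16 and limma 3.58.1 in R 4.3.3, by TMM and the quasi-likelihood test. A gene needed a mean of 1 CPM, before TMM scaling, over a depot's libraries to enter the fit of its 3 groups. Depots were compared, and differences of changes tested, in a fit of all 25 libraries. Calls were made at 0.1 after Benjamini-Hochberg adjustment over every gene in the fit. Dlk1, under the filter, was tested by exact permutation over libraries. Alternatives were DESeq2 1.42.0 (Wald test, and its size factors in edgeR), no filter, 1 CPM in every library, an adjusted p under 0.05, only the groups compared, a replicate block, the sequencing series as a term and each library left out. Series 1 alone and scaling to total counts were added after the data were seen. The fitting code was tested on simulated data. Tables were made in Python 3.11.15 with pandas 2.3.3.

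The markers and the 16 gene lists beside them were chosen with earlier results of these data known. A further B cell gene is not reported here, and the B cell sums leave it out. All markers are named in all comparisons. Of a list, genes are named from the 3 called with the smallest adjusted p per comparison, and for cell types the first 2 genes or the summed level; Thy1, Cd79a and the ratios of markers were named after their values were seen. Within a group, libraries are taken as separate mice, as the labels number them. Whether eWAT and iWAT libraries of 1 number share a mouse is not given, and the fit of all 25 libraries treats them as independent, so its p-values would not account for shared mice.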

Additional observations from a re-analysis of the deposited data

Results flagged for a closer look

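Of 40 groups of 4 or 5 libraries tested with Dixon's criterion over the 10 markers, 3 held a library far from its group, where chance gives about 1 in 20. Pdgfra was at 58.2 CPM in HFD-fed wild type iWAT mouse 4, against 33.6 to 38.2 CPM in the others. Pdgfrb was at 116 CPM in HFD-fed wild type eWAT mouse 2, against 71.8 to 84.0 CPM. Pi16 was at 76.3 CPM in HFD-fed Acod1-/- eWAT mouse 1, against 18.9 to 35.3 CPM.

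The interaction of diet and depot was called lower in eWAT for 2252 and higher for 2108 of 15034 genes, so such calls were common. For 5 markers the change with HFD differed between eWAT and iWAT by the interaction term of edgeR's fit (eWAT minus iWAT, log2). It was -1.09 for Cd34, -1.40 for Pi16, -0.67 for F3 and -0.62 for Pdgfrb, each with the larger rise in iWAT, and 0.91 for Cd55, which rose in eWAT and had a value of -0.36 without a call in iWAT. Leaving out 1 library at a time kept the calls of Cd34 every time and of Cd55 every time but without iWAT ND mouse 2, while those of Pi16, F3 and Pdgfrb were lost in 9, 9 and 17 of the 25 fits. All 3 iWAT ND libraries, on which these differences rest, held 293 to 442 CPM of B cell genes, and the part of this in the differences was not tested.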

How the results depend on the processing

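Of the 652 alternative values of the 25 called marker values, 581 kept direction and call, 71 lost the call and 0 changed sign. The number of markers called moved by over 1.5 times in these cases. With the series as a term, eWAT diet went from 5 to 2, where 17.5% of all genes were called higher in place of 24.8%. With DESeq2's Wald test, eWAT genotype went from 2 to 4. The same test took iWAT genotype from 0 to 4, where it called 4.27% of all genes lower in place of 0%. The iWAT genotype count was 1 with no filter and 4 in series 1 alone, which keeps only Acod1-/- mice 1 and 2. For the other counts of this paragraph the share of all genes is not given, so they do not single out the markers. The depot by diet difference went from 5 to 2 at an adjusted p under 0.05 and to 2 with no filter. Without 1 library, the counts ranged from 4 to 5 (eWAT diet), 2 to 4 (eWAT genotype, 4 without ND mouse 1 or wild type HFD mouse 5), 6 to 8 (iWAT diet), 0 to 3 (iWAT genotype, 3 without Acod1-/- mouse 3 and 1 without wild type HFD mouse 5), 2 to 4 (depot on ND, 2 without iWAT ND mouse 2), 1 to 2 (depot on HFD, wild type; 1 without eWAT mouse 1 or 2 or iWAT mouse 1 or 5), 1 to 5 (depot by diet; 1 without iWAT ND mouse 2, and 2 or 3 without eWAT ND mouse 1, iWAT ND mouse 3, eWAT HFD mice 1, 2 or 3 or iWAT HFD mice 3 or 4) and 0 to 0 (depot in Acod1-/- and depot by genotype). The 8 of iWAT diet, without Acod1-/- mouse 2, include a fall, that of Cd55. The replicate block gave 1 in place of 0 for depot by genotype (Pi16, 1.06, adjusted p = 0.0810). With the block the calls of Pdgfra in iWAT diet (0.47) and of F3 in depot by diet (-0.64) were lost. The pairing of numbers is not given by the labels. Deviations of same-numbered libraries correlated at -0.304 to 0.313 within a depot (median 0.136, against -0.02 for other numbers) and at -0.093 to 0.489 across depots (median 0.081, against -0.048). In 0 of the 9 pairs of groups was every correlation over 0.1, so the numbers were not taken as pairs. A library correlated best with its own number in 20 of 44 cases within a depot and 13 of 22 across depots, among the 3 to 5 libraries of a group. The counts that chance would give were not worked out, so this is a hint from the data and not from the design. Sharing of mice was not settled by it.

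Values near 0 changed sign. Dpp4 in eWAT genotype (0.01) was -0.02 with no filter, -0.01 with the replicate block, -0.02 with the series as a term and -0.13 in series 1 alone, and -0.22 to 0.11 without 1 library. Dpp4 in iWAT diet (-0.32) was 0.14 with the series as a term. In Acod1-/- mice the depot difference of Cd55 (0.04) was -0.10 with the block. In depot by genotype, Zfp423 (-0.03) was 0.05 with the block, 0.05 with the series as a term and 0.14 in series 1 alone, and Ly6a (0.06) was -0.02 in series 1 alone. Without 1 library, the values that turned ranged from -0.07 to 0.22 (Pdgfrb, eWAT diet), -0.09 to 0.11 (Cd55, eWAT genotype), -0.30 to 0.05 (Pdgfra, iWAT genotype), -0.45 to 0.25 (Dpp4, depot on ND), -0.19 to 0.03, -0.02 to 0.13 and -0.03 to 0.23 (Pdgfrb, F3 and Ly6a, depot on HFD in wild type), -0.22 to 0.13, -0.55 to 0.04 and -0.21 to 0.28 (Pdgfra, Pi16 and Cd55, depot in Acod1-/-), -0.47 to 0.21 (Dpp4, depot by diet) and -0.22 to 0.02, -0.19 to 0.11 and -0.09 to 0.24 (Pdgfrb, Zfp423 and Ly6a, depot by genotype). The cause was not tested for any of these. Depth limits Dlk1 alone, with 0 to 57 reads.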
